A study of Mus musculus with 32 samples.

Results

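The tissue inhibitors of metalloproteinases Timp1, Timp2, Timp3 and Timp4, the membrane-anchored inhibitor Reck and the protease trap A2m were followed across cultured mouse chondrocytes. They were taken by symbol, and all 6 were found among the 41388 genes counted in each library. The cells came from femoral heads at postnatal day 21 and had been grown for 4 days in serum-containing medium without passage. The samples were 8 libraries each of LG/J female, LG/J male, SM/J female and SM/J male mice, 32 in all, with no treatment or engineered allele named in the labels. LG/J and SM/J are inbred strains whose mice are known to heal ear wounds well and poorly, in that order, and the cells were studied in culture, without the tissue around them. Nothing in the labels says that libraries with different numbers are separate animals or wells, so p-values measure the spread between libraries, which may be partly technical.

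Cartilage matrix is cut by metalloproteases of several families. The matrix metalloproteinases (MMPs) cleave collagen and other matrix proteins, the ADAMTS enzymes include the aggrecanases, and the ADAM enzymes shed proteins from the cell surface. TIMPs block the catalytic zinc site of these enzymes by binding it tightly. Timp3 is held in the matrix and has the widest reach, including ADAM17 and the aggrecanases, whereas Timp1, Timp2 and Timp4 are soluble. Reck sits on the cell surface and restrains MMPs and ADAM10, and A2m encodes the broad protease trap that is cleared through the receptor Lrp1.

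Start-site windows are shown for Timp1, Timp2, Timp3 and Reck, the members whose levels are compared most closely below, from RefSeq on GRCm38.p6. Of the 6 members, 5 were matched in the RefSeq table by symbol. Each window runs from 250 bases before to 50 bases after the start, at chrX:20869916-20870215 on the plus strand, chr11:118355362-118355661 on the minus strand, chr10:86300162-86300461 on the plus strand and chr4:43875280-43875579 on the plus strand. Capitals mark matches, on either strand, to the GC box GGGCGG, to CCAAT and to TGAGTAA, a variant of the AP-1 site.
Timp1: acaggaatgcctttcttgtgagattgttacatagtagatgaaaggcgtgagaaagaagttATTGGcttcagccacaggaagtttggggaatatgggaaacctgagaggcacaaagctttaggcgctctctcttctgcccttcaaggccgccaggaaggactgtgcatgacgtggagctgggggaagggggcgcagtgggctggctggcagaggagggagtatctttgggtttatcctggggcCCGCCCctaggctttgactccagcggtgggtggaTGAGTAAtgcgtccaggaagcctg
Timp2: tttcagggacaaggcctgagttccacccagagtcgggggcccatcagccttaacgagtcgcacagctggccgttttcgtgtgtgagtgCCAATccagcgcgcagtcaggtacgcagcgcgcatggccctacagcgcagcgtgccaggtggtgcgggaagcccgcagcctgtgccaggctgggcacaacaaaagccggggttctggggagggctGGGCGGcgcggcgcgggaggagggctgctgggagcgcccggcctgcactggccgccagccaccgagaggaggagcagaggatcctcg
Timp3: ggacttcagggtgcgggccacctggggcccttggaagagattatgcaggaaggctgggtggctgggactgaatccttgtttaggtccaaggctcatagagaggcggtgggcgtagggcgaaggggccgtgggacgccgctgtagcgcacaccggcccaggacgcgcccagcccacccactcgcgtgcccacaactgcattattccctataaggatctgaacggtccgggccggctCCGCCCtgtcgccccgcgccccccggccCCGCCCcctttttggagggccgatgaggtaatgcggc
Reck: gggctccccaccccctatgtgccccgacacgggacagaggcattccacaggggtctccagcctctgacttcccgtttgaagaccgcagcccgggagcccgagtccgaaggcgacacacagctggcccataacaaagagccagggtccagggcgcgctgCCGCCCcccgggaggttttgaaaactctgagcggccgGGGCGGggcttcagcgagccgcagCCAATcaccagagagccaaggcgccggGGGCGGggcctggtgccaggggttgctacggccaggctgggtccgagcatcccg
The Timp1 window held TGAGTAA at base 27 after the start, a match present in 2.68% of 32851 promoter windows of the same length, and no other member's window held it. GC boxes stood in the windows of Timp1 (1), Timp2 (1), Timp3 (2) and Reck (3), and 35.7% of all windows had at least 1. CCAAT was found in the windows of Timp1, Timp2 and Reck, against 37.4% of all windows. The AP-1 consensus TGANTCA (7.81% of all windows), the STAT site TTCNNNGAA (8.3%) and TATAAA (13.6%) had no match in any member's window, and the Timp4 window matched none of the motifs. No 2 matches overlapped, the motifs were chosen after the windows had been seen, and a match is a description of letters, not a site in use.

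Total counts per library ran from 15840330 to 25571598. LG/J female 1 and LG/J male 1 stood apart from the other 30 libraries, and results that rest on them are given with and without them. Of 9 chondrocyte markers, 8 were lower in them than in any other library and Prg4 was higher: aggrecan (Acan) stood at 48.2 and 67.7 CPM (counts scaled to library size with TMM factors), against 1177 to 3362 in the other 14 LG/J libraries and 518 to 1974 in SM/J. Type II collagen (Col2a1) stood at 629 and 1379 CPM, against 7536 to 14862 in the other LG/J and 4551 to 11830 in SM/J libraries. Prg4, the lubricin gene, stood at 5953 and 3987 CPM, against 23.6 to 1491 in the other LG/J and 185 to 823 in SM/J libraries. In addition, 6 libraries (LG/J female 4 and 5, SM/J female 3 and 4, SM/J male 2 and 3) held transcripts of both sexes: in CPM without TMM scaling, Ddx3y reached 20.3 to 84.5 in the 4 female ones, against at most 1.34 in the other females, and Xist 15.2 to 16.8 in the 2 male ones, against at most 0.603 in the other males. Among 112 pairs of libraries within groups, 6 pairs lay closest, at 4.15 to 4.93 times the sampling variance of counts against a median of 16.4. None was as close as repeat counts of 1 library would be, and each library was kept as 1 sample. This check cannot tell libraries made from 1 culture from libraries of separate cultures, so the pairs were also summed as an alternative. The closest pairs were LG/J male 4 and 5, LG/J female 4 and 5, LG/J female 7 and 8, LG/J male 2 and 3, SM/J female 3 and 4, and SM/J male 6 and 7.

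Timp3 and Timp1 were the dominant inhibitor transcripts and Timp4 was barely detected. Per length, in the deposited RPKM (reads per kilobase of transcript, scaled to library size), Timp3 averaged 1609 ± 716 in LG/J and 1957 ± 502 in SM/J libraries, and Timp1 averaged 1319 ± 905 in LG/J and 1553 ± 755 in SM/J libraries (SD, n = 16 each). Timp2 followed at 44.3 ± 7.08 RPKM in LG/J and 59.7 ± 8.79 in SM/J, and Reck at 10.99 ± 4.87 in LG/J and 16.8 ± 5.21 in SM/J. A2m averaged 1.44 ± 1.48 RPKM in LG/J and 1.77 ± 0.842 in SM/J, and Timp4 0.491 ± 0.252 in LG/J and 0.458 ± 0.215 in SM/J. The order Timp1 above Timp2, Timp2 above Reck and Reck above A2m held in 32 of 32 libraries. Timp3 exceeded Timp1 in 24 libraries, 12 of each strain, and Timp1 exceeded Timp3 in the other 8. The difference between these neighbours was not tested. A2m exceeded Timp4 in 24 libraries, of which 9 were LG/J and 15 SM/J. Timp3 is the longest of the 6 transcripts, and in reads it was further ahead: it took 1.31% ± 0.583 of all counts in LG/J and 1.59% ± 0.409 in SM/J. Timp3 lies within Syn3 on the opposite strand and shares 1733 of its 8144 exonic bases with it. Whether counting used strand is not given in the sources used here, and if the shared bases went uncounted the Timp3 RPKM would be 1.27-fold higher. Syn3 itself averaged 2.80 CPM, far below Timp3.

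**Figure D1:**
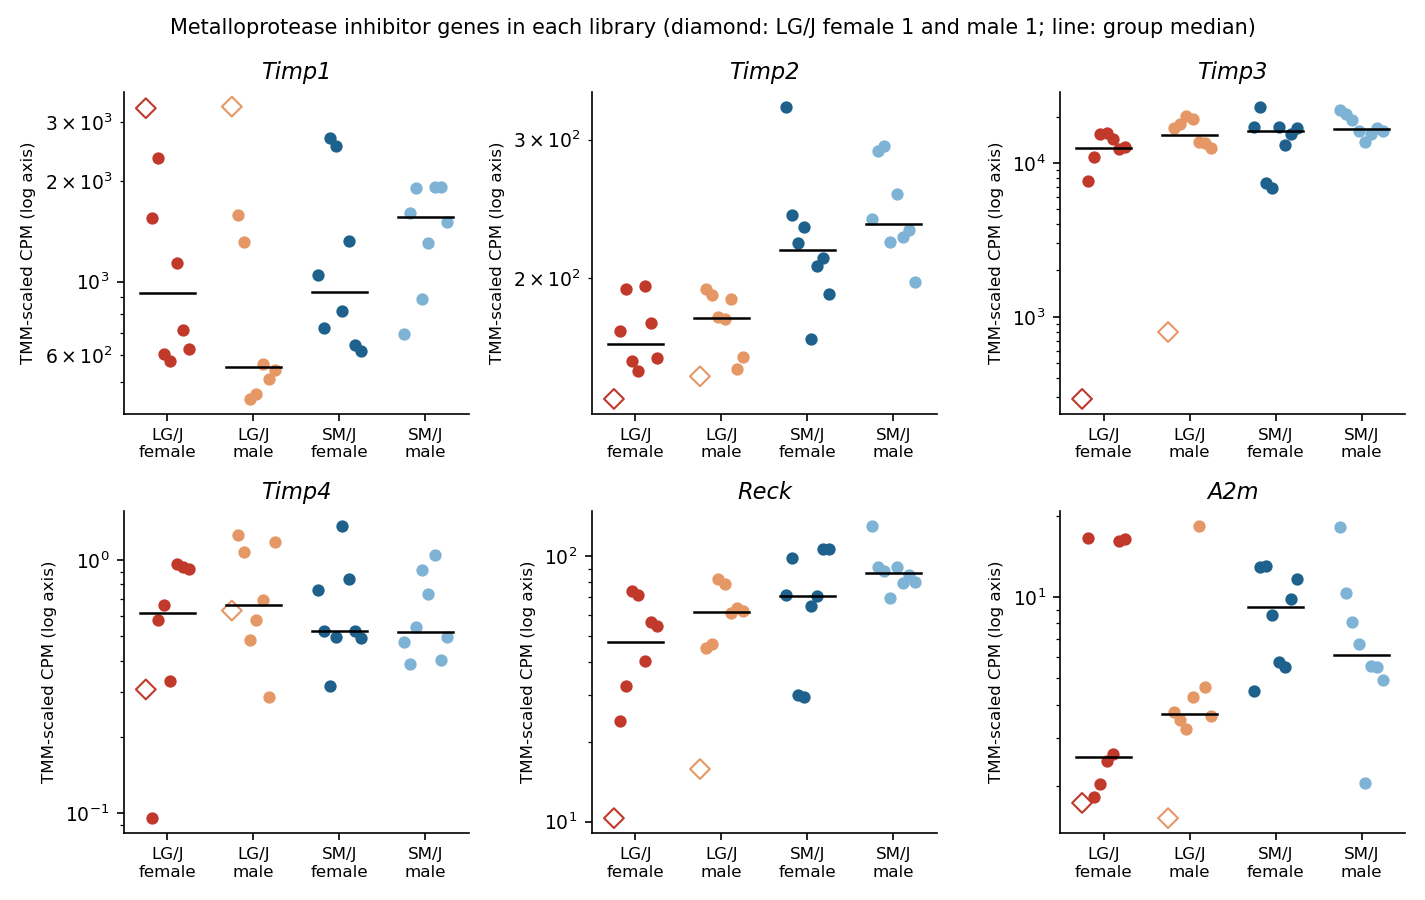
TMM-scaled CPM (log axis) of the 6 inhibitor genes in each of the 32 libraries, by strain and sex, with 1 point per library, diamonds for LG/J female 1 and male 1, and a line at the group median. Timp2 lay at 140 to 195 CPM in LG/J libraries and at 167.5 to 330.5 in SM/J libraries, whereas Timp1 and A2m spread widely within every group.

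Timp2 (ENSMUSG00000017466, chr11:118301069-118355740, minus strand, protein coding) was lower in LG/J in both sexes. Its product inhibits MMPs and, together with the membrane-type enzyme Mmp14, also serves to activate pro-MMP2. The lowest, median and highest levels were 140, 165 and 195 CPM in LG/J females and 150, 178 and 193.5 CPM in LG/J males, against 167.5, 217 and 330.5 CPM in SM/J females and 198, 234 and 295 CPM in SM/J males. All 16 LG/J libraries lay below the SM/J median and 14 of 16 SM/J libraries lay above the highest LG/J library, while 7 LG/J libraries lay below every SM/J library, so the ranges overlapped between 167.5 and 195 CPM. The log2 fold change of LG/J over SM/J was -0.46 ± 0.07 (SE; 95% confidence interval -0.61 to -0.31; adjusted p = 1.09e-05), a level 1.37-fold lower. Values are from edgeR's quasi-likelihood test, p-values are adjusted over all tested genes by Benjamini-Hochberg with a threshold of 0.05, and confidence intervals are not adjusted. It was -0.42 ± 0.10 in females (adjusted p = 0.00447) and -0.49 ± 0.10 in males (adjusted p = 0.000703), and these did not differ detectably (difference of -0.07 ± 0.15, adjusted p = 0.977). Without LG/J female 1 and male 1 the value was -0.42 ± 0.07 (adjusted p = 3.91e-05). Timp2 and Reck were the 2 of 6 members called for strain, both lower and none higher, against 29.9% of 16136 tested genes called (16.4% higher and 13.5% lower). The median log2 fold change of the 6 members was -0.36, against 0.02 over all tested genes, and all 6 had passed the filter on low counts.

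**Figure D2:**
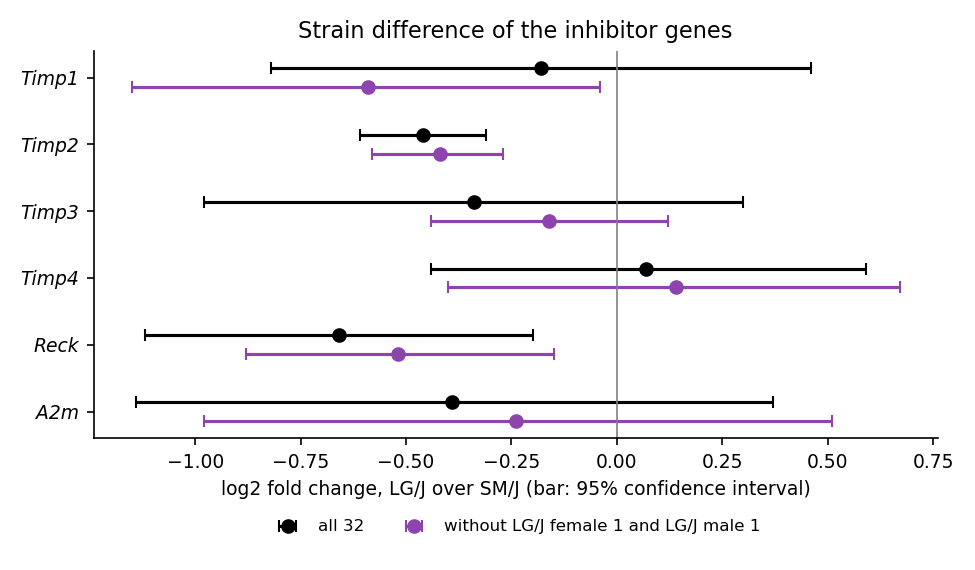
Log2 fold change of LG/J over SM/J for each inhibitor gene, with its 95% confidence interval, from all 32 libraries and without LG/J female 1 and male 1. The intervals of Timp2 and Reck lay below 0 in both fits, the Timp1 interval lay below 0 in the second fit (-1.15 to -0.04), and the intervals of Timp3, Timp4 and A2m spanned 0 in both.

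Reck (ENSMUSG00000028476, chr4:43875530-43944806, plus strand, protein coding) was also lower in LG/J. The lowest, median and highest levels were 10.3, 47.4 and 74.2 CPM in LG/J females and 15.8, 61.9 and 82.0 CPM in LG/J males, against 29.4, 71.2 and 107 CPM in SM/J females and 69.4, 86.6 and 130.4 CPM in SM/J males. All 16 LG/J libraries lay below the SM/J median of 82.7 CPM, but 8 of 16 SM/J libraries lay within the LG/J range, the lowest being SM/J female 3 and 4 at 30.03 and 29.45 CPM. The log2 fold change was -0.66 ± 0.23 (95% confidence interval -1.12 to -0.20; adjusted p = 0.0265), a level 1.58-fold lower, and -0.52 ± 0.18 without LG/J female 1 and male 1 (adjusted p = 0.0281), where 32.2% of 16229 tested genes were called (17.1% higher and 15.1% lower). Within a sex it missed the threshold, at -0.67 ± 0.32 in females (adjusted p = 0.188) and -0.65 ± 0.32 in males (adjusted p = 0.153), against backgrounds of 13.4% and 22.3% of genes called. The call was lost when counts were scaled by library size only (-0.61, adjusted p = 0.0571) and when low counts were not filtered (-0.66, adjusted p = 0.0624).

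Markers of other cell types also differed between the strains beside Timp2 and Reck, and fewer cells of a type cannot be told apart from less RNA per cell in these bulk cultures. Of 10 macrophage markers, Lyz2, Fcgr1 and Tyrobp fell in LG/J and none rose. Of all tested genes 29.9% were called, 16.4% higher and 13.5% lower. The median log2 fold change of the 10 was -1.42 (-1.40 without LG/J female 1 and male 1), against 0.02 over all tested genes. Their summed level had a median of 76.5 CPM in LG/J and 326 in SM/J libraries. There were again 3 that fell without LG/J female 1 and male 1, where 17.1% of tested genes were called higher and 15.1% lower. Of the 10, Cd14 was then called (-1.44 ± 0.39, adjusted p = 0.00486, against 0.57 ± 0.63, adjusted p = 0.541, with them) and Tyrobp not (adjusted p = 0.0543). Fcgr1 was at 0 in at least 1 LG/J library, and their summed level ran from 32.9 to 1753 CPM in LG/J and 92.3 to 1271 in SM/J libraries. LG/J male 6, the library with 1753 CPM of macrophage markers, had 188 CPM of Timp2 and 61.2 CPM of Reck, both within the range of the other LG/J libraries. This is 1 library, and the relation of Timp2 and Reck to the macrophage markers was not tested. Of 6 pericyte and smooth muscle markers, Acta2 and Tagln fell and Cspg4 rose, with sums of 155 to 758 CPM in LG/J and 414 to 1691 in SM/J. Of 8 fibroblast markers, Postn and Dpt fell and Thy1 rose, with sums of 623 to 3721 CPM in LG/J and 908 to 4829 in SM/J. Thy1 was low, averaging 0.643 CPM in LG/J and 0.103 in SM/J. Of the 3 endothelial markers tested, Eng fell, and Cdh5 and Tek averaged under 0.25 CPM in both strains. No osteoblast (6), adipocyte (2) or skeletal muscle (1) marker that was tested passed the threshold over all 32 libraries. When LG/J female 1 and male 1 were left out, the osteoblast genes Sp7 (0.66 ± 0.24, adjusted p = 0.0377) and Alpl (0.67 ± 0.25, adjusted p = 0.0435) rose and the adipocyte gene Fabp4 fell (-1.47 ± 0.50, adjusted p = 0.0258). The adipocyte markers that were not tested averaged at most 0.188 CPM in either strain. The 3 erythroid markers, summing to at most 0.918 CPM, did not pass the filter. The part of these cells in the Timp2 and Reck differences was not tested. Among 9 chondrocyte markers, Acan, Sox9, Hapln1 and Prg4 rose in LG/J and none fell, and without LG/J female 1 and male 1 there were 8 that rose. Called higher over all tested genes were 16.4%, and 17.1% without these 2 libraries.

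Timp1 (ENSMUSG00000001131, chrX:20870166-20874735, plus strand, protein coding) varied widely within each group, and no strain difference passed the test. The lowest, median and highest levels were 579, 925 and 3308 CPM in LG/J females and 445, 555 and 3345 CPM in LG/J males, against 617, 932 and 2691 CPM in SM/J females and 696, 1559 and 1926 CPM in SM/J males. The 2 highest values were those of LG/J male 1 (3345 CPM) and female 1 (3308 CPM), followed by SM/J female 3 and 4 at 2691 and 2544 CPM, and the strains overlapped over most of the range. The log2 fold change of LG/J over SM/J was -0.18 ± 0.31 (95% confidence interval -0.82 to 0.46; adjusted p = 0.715). Without LG/J female 1 and male 1 it was -0.59 ± 0.27 (-1.15 to -0.04; adjusted p = 0.097), with 11 of the 14 remaining LG/J libraries below the SM/J median of 1313 CPM. Leaving out LG/J female 1 alone gave -0.35 and LG/J male 1 alone -0.43, and leaving out SM/J female 3 or 4 gave -0.07 or -0.08, none past the threshold. Without the 6 libraries that held transcripts of both sexes the sign turned, to 0.28 ± 0.33 (adjusted p = 0.583), and with voom, an alternative test, the difference passed the threshold (-0.62, adjusted p = 0.0451). Timp1 lies within Syn1 on the opposite strand but shares no exonic base with it, and Syn1 averaged 0.418 CPM.

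Timp3 (ENSMUSG00000020044, chr10:86300372-86349506, plus strand, protein coding) was high in 30 libraries and low in LG/J female 1 and male 1. The lowest, median and highest levels were 293, 12493 and 15560 CPM in LG/J females and 796.5, 15225 and 20188 CPM in LG/J males, against 6908, 16081 and 23194 CPM in SM/J females and 13645, 16539 and 22061 CPM in SM/J males. The next lowest LG/J library had 7604 CPM, so LG/J female 1 and male 1 were separated from all the others. The log2 fold change was -0.34 ± 0.31 (95% confidence interval -0.98 to 0.30; adjusted p = 0.447), and -0.16 ± 0.14 without them (-0.44 to 0.12; adjusted p = 0.414).

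The balance of the TIMP transcripts differed between libraries, with a Timp1 to Timp3 ratio in RPKM of 0.202 to 103.5 in LG/J and 0.286 to 3.38 in SM/J. As a share of the summed RPKM of Timp1 to Timp4, Timp3 made up 0.948% in LG/J female 1 and 2.51% in LG/J male 1, against 33.5 to 81.9% (median 68.8%) in the other 14 LG/J libraries and 22.5 to 76.5% (median 55.4%) in SM/J libraries. Timp1 made up 98.1% and 96.5% in LG/J female 1 and male 1, against 16.6 to 65.3% in the other LG/J and 21.9 to 75.9% in SM/J libraries. The summed TIMP level was 3078 and 3155 RPKM in LG/J female 1 and male 1, within the 2160 to 4145 RPKM of the other LG/J and the 2770 to 4270 RPKM of the SM/J libraries.

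Timp1 and Reck ran in opposite directions in the LG/J libraries, and less clearly in the SM/J libraries. Over the 14 LG/J libraries left without female 1 and male 1, log2 CPM of the pair had a Pearson r of -0.88 and a Spearman rho of -0.89 (2-sided permutation tests with 100000 resamples, adjusted p = 0.0012 and 0.0006 over the 30 member relations computed). The value was -0.91 without the 2 libraries farthest from the Timp1 median and -0.89 with each close pair averaged, which leaves 10 values. Within a sex it was -0.89 in LG/J females and -0.93 in LG/J males (7 libraries each). In the 16 SM/J libraries r was -0.67 (permutation test, adjusted p = 0.0188) and rho -0.59 (adjusted p = 0.244), and r was -0.54 without the 2 farthest libraries. Split by sex, SM/J females gave r of -0.96 and SM/J males -0.44 (8 libraries each), with rho of -0.88 and -0.26. This difference was not tested. Timp3 and Reck ran together, with r of 0.73 in LG/J (adjusted p = 0.0259) and 0.89 in SM/J (adjusted p = 0.00735, both permutation tests), but this rested on a few libraries: without the 2 farthest, r was 0.38 and 0.46, and rho (0.58 in LG/J and 0.53 in SM/J) missed the threshold in both (adjusted p = 0.244). Timp1 against Timp3 gave r of -0.42 in LG/J (adjusted p = 0.362) and -0.60 in SM/J (adjusted p = 0.0538), neither past the threshold. All values share their library's depth and scaling. The permutations took each library as separate, with sexes and close pairs together, and the pair-averaged values were not tested.

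**Figure D3:**
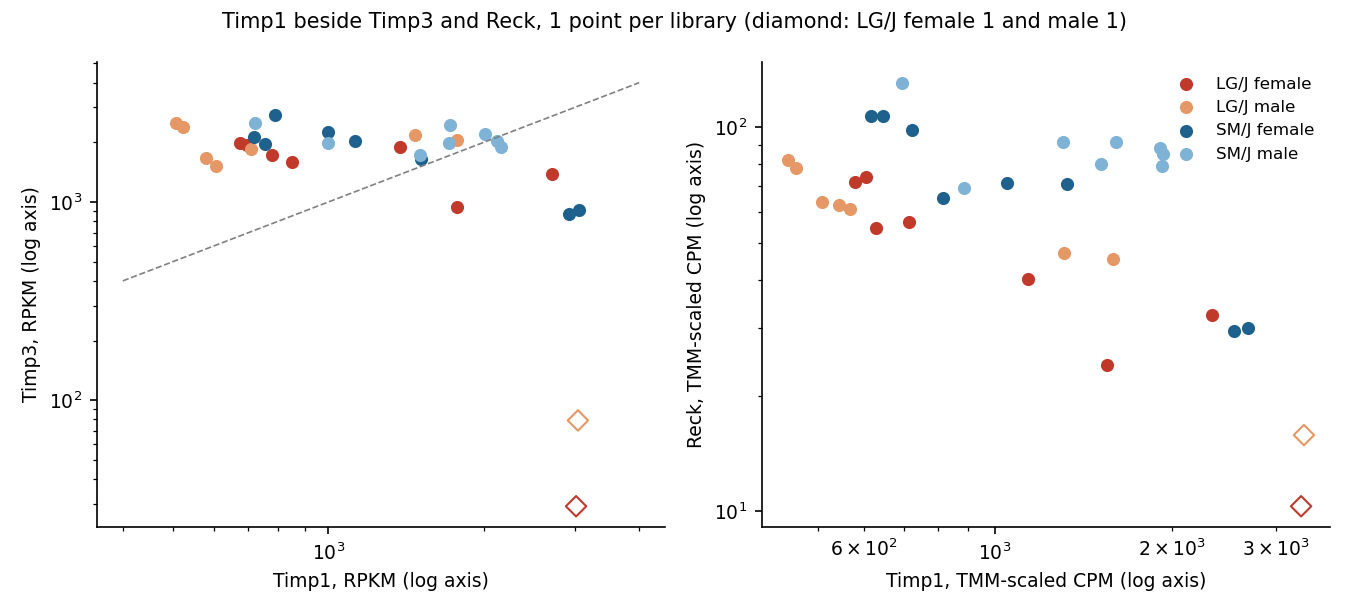
Timp1 against Timp3 in RPKM (left, both axes log, dashed line at equal levels) and Timp1 against Reck in TMM-scaled CPM (right, both axes log), 1 point per library, with diamonds for LG/J female 1 and male 1. Timp3 stayed within 867 to 2757 RPKM in 30 libraries and stood at 29.2 and 79.0 RPKM in the other 2, while Reck declined along the Timp1 axis in LG/J libraries.

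The genes most like each member were named by Pearson r of log2 CPM over the 32 libraries, among 8105 genes of at least moderate level. For Timp1 they were Loxl3, a lysyl oxidase family member (r = 0.94), the transcription factor Snai1 (0.94) and Car5b (0.92), and leaving out LG/J female 1 and male 1 gave 0.93, 0.92 and 0.92. For Timp2 they were Tnfrsf11b, which encodes the osteoclast inhibitor osteoprotegerin (0.89), Pdgfrl (0.88) and Hacd4 (0.87), and Tnfrsf11b averaged 1412 CPM in LG/J and 3237 in SM/J. The matrix protein genes Sparc (0.97) and Omd (0.96) and Cdsn (0.97) led for Timp3, but fell to 0.79, 0.66 and 0.79 without LG/J female 1 and male 1. Reck was most like Npr2, the receptor of C-type natriuretic peptide (0.95), the small proteoglycan gene Ogn (0.95) and Tpst1 (0.94), with 0.90, 0.90 and 0.91 in the 30 libraries. The likeness was looser for A2m, with Sorbs2 (0.76), Cpxm2 (0.75) and Nedd9 (0.74), and for Timp4, with Pdcd2l (0.54), Slc1a3 (0.50) and Slc4a1ap (0.50). Libraries of both strains enter these values, so a shared strain difference adds to them.

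A2m (ENSMUSG00000030111, chr6:121636173-121679237, plus strand, protein coding) was low, at 24 to 451 counts per library, and uneven within LG/J. The lowest, median and highest levels were 1.73, 2.55 and 16.7 CPM in LG/J females and 1.51, 3.69 and 18.4 CPM in LG/J males, against 4.50, 9.24 and 13.1 CPM in SM/J females and 2.05, 6.13 and 18.3 CPM in SM/J males. LG/J female 2, 7 and 8 and LG/J male 6 had 16.2 to 18.4 CPM, whereas the other 12 LG/J libraries had 1.51 to 4.64 CPM with none in between. The log2 fold change of LG/J over SM/J was -0.39 ± 0.37 (95% confidence interval -1.14 to 0.37; adjusted p = 0.473), and -0.24 ± 0.37 without LG/J female 1 and male 1 (adjusted p = 0.67). It was -0.70 without LG/J male 6 alone (adjusted p = 0.126) and -0.23 without SM/J male 1 alone (adjusted p = 0.684).

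Timp4 (ENSMUSG00000030317, chr6:115245616-115251849, minus strand, protein coding) had 2 to 32 counts per library, which limits any comparison. Reads were counted over 1416 exonic bases. The GENCODE annotation gives the gene a longer span, chr6:115241892-115252205, so any reads in the rest of it went uncounted. Timp4 averaged 0.685 ± 0.341 CPM in LG/J and 0.645 ± 0.280 in SM/J libraries (SD, n = 16 each), ranging from 0.0957 to 1.25 CPM in LG/J and from 0.319 to 1.36 in SM/J. The log2 fold change was 0.07 ± 0.25 (95% confidence interval -0.44 to 0.59; adjusted p = 0.862), and leaving out 1 library gave 0.01 to 0.19, so no difference was detectable at this depth. Syn2, on the opposite strand around Timp4 with no shared exonic base, fell in LG/J (-1.84 ± 0.37, adjusted p = 0.000239), at 0.248 ± 0.163 CPM in LG/J and 0.885 ± 0.473 in SM/J. Neither Syn1 (0.65 ± 0.34, adjusted p = 0.155) nor Syn3 (-0.49 ± 0.23, adjusted p = 0.105) passed the test, and Cep295nl, within Timp2, had too few counts to be tested.

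No member was called for sex. Male minus female values over both strains ran from -0.35 ± 0.37 for A2m (adjusted p = 0.655) to 0.31 ± 0.31 for Timp3 (adjusted p = 0.637), where 3.46% of genes were called by edgeR's quasi-likelihood test. X-linked Timp1 stood at -0.07 ± 0.31 (95% confidence interval -0.71 to 0.57; adjusted p = 0.941). Without LG/J female 1 and male 1 the Timp3 value was 0.31 ± 0.14 (adjusted p = 0.179). The strain difference did not depend detectably on sex for any member (adjusted p of 0.929 to 0.999), and 0.0062% of genes, which is 1 gene, had such a call. The 6 libraries with transcripts of both sexes limit every sex comparison.

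Other inhibitors moved in both directions. Of 12 further metalloprotease inhibitors and relatives of A2m, 7 were tested: Mug1 (2.61 ± 0.45, adjusted p = 3.34e-05) and Cd109 (0.94 ± 0.18, adjusted p = 0.000196) rose in LG/J, and Pzp (-0.95 ± 0.19, adjusted p = 0.000309) and Spock2 (-1.81 ± 0.30, adjusted p = 1.29e-05) fell. Cd109, a surface-anchored relative of A2m, was the abundant one, at 135.5 ± 51.4 CPM in LG/J and 70.7 ± 21.9 in SM/J. Mug1 and Pzp encode relatives of A2m and Spock2 a matrix proteoglycan, and these genes were near or below 1 CPM in at least 1 strain: Mug1 2.60 ± 2.74 in LG/J and 0.414 ± 0.274 in SM/J, Pzp 0.427 ± 0.151 in LG/J and 0.835 ± 0.299 in SM/J, and Spock2 0.431 ± 0.232 in LG/J and 1.53 ± 0.776 in SM/J. Called over all tested genes were 16.4% higher and 13.5% lower. The median log2 fold change of the 7 was 0.06, against 0.02 over all genes. It was -0.11, against -0.00, without LG/J female 1 and male 1, and Fetub, which encodes a fetuin, also fell (-1.36 ± 0.37, adjusted p = 0.00463, against -0.85 ± 0.40, adjusted p = 0.114, with them).

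Among the targets, Mmp3, Mmp10 and Mmp13 were highest in LG/J female 1 and male 1. Of 17 secreted MMPs 10 were tested, with a median log2 fold change of -0.14, and of -0.56 without LG/J female 1 and male 1. In this list 2 were called higher and 2 lower, against 16.4% and 13.5% of all tested genes. The stromelysin Mmp3 rose in LG/J (2.54 ± 0.98, adjusted p = 0.0498), as did the related Mmp10 (2.22 ± 0.85, adjusted p = 0.0479), but without LG/J female 1 and male 1 both calls were lost and both signs turned, to -1.16 ± 0.60 for Mmp3 (adjusted p = 0.148) and -0.56 ± 0.56 for Mmp10 (adjusted p = 0.486). Mmp3 stood at 35071 and 27411 CPM in LG/J female 1 and male 1, against 16.2 to 1038 in the other LG/J and 94.8 to 2625 in SM/J libraries. The collagenase Mmp13 stood at 14176 and 13852 CPM there, against 662 to 3761 in the other LG/J and 1868 to 6888 in SM/J libraries. It gave 0.20 ± 0.36 (adjusted p = 0.723) with them and -0.56 ± 0.24 (adjusted p = 0.0669) without. The macrophage elastase Mmp12 fell (-3.18 ± 0.64, adjusted p = 0.000253), at 6.82 ± 10.1 CPM in LG/J and 61.3 ± 50.8 in SM/J, beside the macrophage markers given above, whose part in it was not tested. Mmp28 also fell (-1.04 ± 0.19, adjusted p = 5.61e-05), at a low level of 0.817 CPM in LG/J and 1.65 in SM/J. Of 6 membrane-type MMPs 4 were tested and 1 was called: Mmp14, the collagenase that acts with Timp2 on pro-MMP2, fell (-0.50 ± 0.16, adjusted p = 0.0166), at 16.1 ± 6.61 CPM in LG/J and 22.6 ± 6.31 in SM/J. Mmp2 itself was at 88.0 ± 37.0 CPM in LG/J and 87.8 ± 25.8 in SM/J (0.00 ± 0.17, adjusted p = 0.991).

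**Figure D4:**
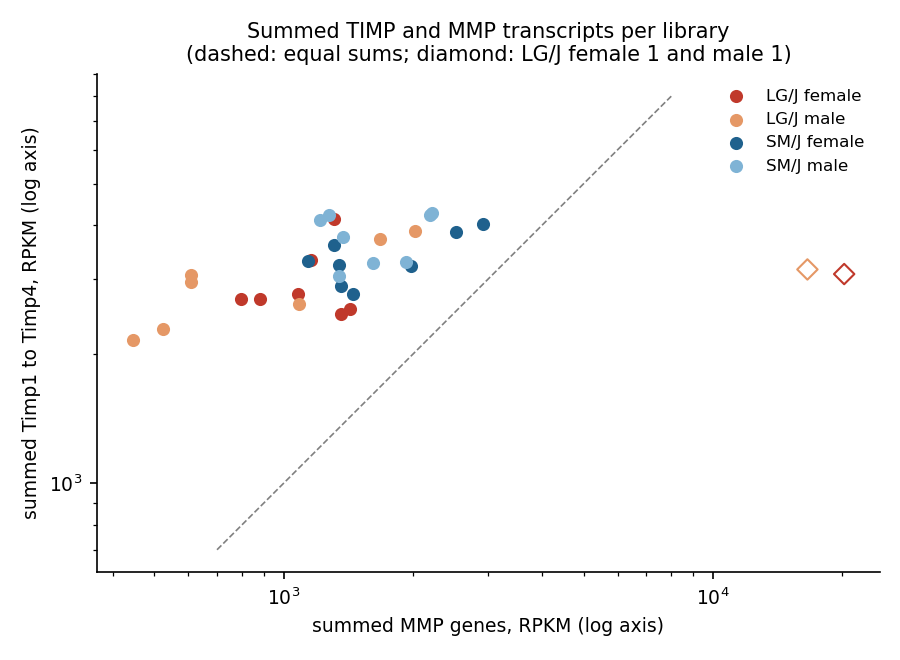
Summed RPKM of Timp1 to Timp4 against summed RPKM of the 23 MMP genes listed, both axes log, 1 point per library, with a dashed line at equal sums and diamonds for LG/J female 1 and male 1. These lay at 20225 and 16606 RPKM of MMPs, right of the line, and the other 30 libraries lay left of it, at 445 to 2920 RPKM of MMPs.

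Summed over 23 MMP genes, MMP levels exceeded TIMP levels in LG/J female 1 and male 1 and in none of the other 30 libraries. The ratio of summed TIMP to summed MMP RPKM was 0.152 and 0.190 in these, against 1.78 to 5.03 (median 2.97) in the other 14 LG/J libraries and 1.38 to 3.39 (median 2.07) in SM/J libraries. Mmp3 made up 78.2% and 74.2% of the MMP sum in them. In the other libraries the largest part was usually Mmp13, with a median of 81.2% in LG/J and 83.7% in SM/J. The ratio is of transcripts and carries no test, and it says nothing of inhibitor or enzyme protein.

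Of 19 ADAMTS genes 16 were tested, and 2 rose and 3 fell in LG/J, against 16.4% higher and 13.5% lower of all tested genes. Their median log2 fold change was 0.12, and -0.06 without LG/J female 1 and male 1. Adamts7 (1.53 ± 0.34, adjusted p = 0.000879) and Adamts16 (1.77 ± 0.39, adjusted p = 0.000655) rose. Both were low, averaging 1.525 CPM in LG/J and 0.522 in SM/J for Adamts7, and 0.477 and 0.136 for Adamts16. Adamts9 (-1.64 ± 0.16, adjusted p = 1.13e-09), the aggrecanase Adamts4 (-0.85 ± 0.28, adjusted p = 0.019) and Adamts15 (-1.21 ± 0.36, adjusted p = 0.0108) fell. Adamts15 was also low, averaging 0.374 CPM in LG/J and 0.862 in SM/J. Adamts9, at 4.20 ± 1.35 CPM in LG/J and 13.2 ± 4.20 in SM/J, was the most abundant of these 5. The aggrecanase Adamts5, a target of Timp3, turned with LG/J female 1 and male 1: they had 346.5 and 391.9 CPM, against 5.49 to 33.1 in the other LG/J and 12.8 to 52.8 in SM/J libraries. Its log2 fold change was 1.16 ± 0.59 (adjusted p = 0.14) with them and -0.83 ± 0.26 without (adjusted p = 0.0165), a fall in LG/J. Of 9 ADAM sheddases 8 were tested, with a median of -0.29, and Adam15 (-0.44 ± 0.10, adjusted p = 0.00169) and Adam8 (-1.30 ± 0.48, adjusted p = 0.0375) fell. Without LG/J female 1 and male 1, Adam8 missed the threshold (adjusted p = 0.0625), while Adam9 (-0.55 ± 0.15, adjusted p = 0.00625) and Adam10 (-0.40 ± 0.11, adjusted p = 0.00541) passed it. Called in that fit were 17.1% of tested genes higher and 15.1% lower. Adam17, the sheddase that Timp3 inhibits, was at 97.8 ± 13.6 CPM in LG/J and 89.0 ± 15.5 in SM/J (0.15 ± 0.07, adjusted p = 0.113).

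**Figure D5:**
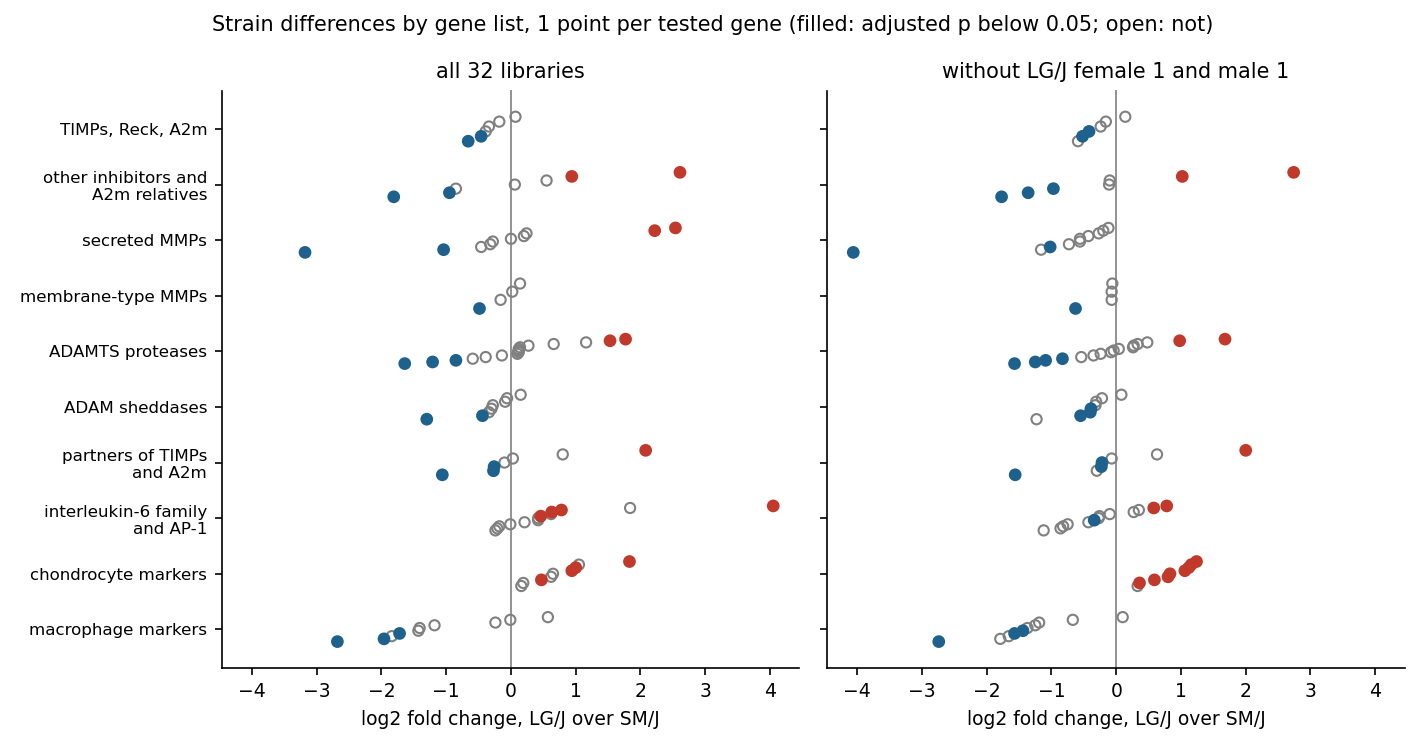
Log2 fold change of LG/J over SM/J for every tested gene of 10 lists, 1 point per gene, filled where the adjusted p was below 0.05 (red higher and blue lower in LG/J) and open where not, from all 32 libraries (left) and without LG/J female 1 and male 1 (right). Inhibitors and proteases had calls on both sides of 0, and of the 13 tested interleukin-6 and AP-1 genes 4 rose on the left and 2 rose and 1 fell on the right. Shares called over all tested genes were 16.4% higher and 13.5% lower on the left, and 17.1% and 15.1% on the right.

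All 7 receptors and binding partners of TIMPs and A2m were tested, and 1 rose and 3 fell, against 16.4% and 13.5% of all tested genes. Their median was -0.10, and -0.22 without LG/J female 1 and male 1. Efemp1, whose product fibulin-3 binds Timp3, rose in LG/J (2.08 ± 0.24, adjusted p = 2.48e-08), at 134.5 ± 57.3 CPM in LG/J and 31.7 ± 12.9 in SM/J. The Timp1-binding tetraspanin Cd63 (-0.26 ± 0.07, adjusted p = 0.00618) and the integrin subunits Itga3 (-1.06 ± 0.30, adjusted p = 0.00787) and Itgb1 (-0.27 ± 0.09, adjusted p = 0.0179), which bind Timp2, fell. Lrp1, the receptor that clears A2m, was at 262 ± 173 CPM in LG/J and 259 ± 104 in SM/J (0.03 ± 0.24, adjusted p = 0.951). Of 6 partners of Reck in Wnt7 signalling 4 were tested, with a median of 0.20 (0.07 without LG/J female 1 and male 1), and Lrp6 rose (0.35 ± 0.11, adjusted p = 0.0112). Adgra2, the receptor that Reck pairs with, was at 0.605 ± 0.256 CPM in LG/J and 0.895 ± 0.444 in SM/J (adjusted p = 0.163), and Wnt7a and Wnt7b had too few counts to be tested.

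Interleukin-6 family cytokines and AP-1 factors are known inducers of Timp1. Of 15 such genes 13 were tested, with a median of 0.42, and of -0.27 without LG/J female 1 and male 1. Called over all tested genes were 16.4% higher and 13.5% lower, and 17.1% and 15.1% without these 2 libraries. Over all 32 libraries Il6 (4.05 ± 1.01, adjusted p = 0.00251), Stat3 (0.63 ± 0.07, adjusted p = 6.58e-09), Lifr (0.78 ± 0.10, adjusted p = 1.48e-07) and Jun (0.46 ± 0.16, adjusted p = 0.0277) rose in LG/J. The Il6 call rested on LG/J female 1 and male 1, at 63.9 and 39.8 CPM against at most 0.961 in the other LG/J and 1.16 in SM/J libraries, and it was lost without them (-0.10 ± 0.45, adjusted p = 0.893), as was that of Jun (adjusted p = 0.116). Stat3 and Lifr kept theirs (0.58 ± 0.06, adjusted p = 1e-08, and 0.78 ± 0.10, adjusted p = 1.97e-07), and Il6st fell (-0.34 ± 0.11, adjusted p = 0.0228). Of the AP-1 genes, Fosl1 stood at 63.3 and 58.9 CPM in LG/J female 1 and male 1, against 0.483 to 20.4 in the other LG/J and 1.13 to 26.2 in SM/J libraries. Junb (26.4 and 22.7 CPM) and Jun (16.7 and 15.3 CPM) were also above all other libraries there. Fos was not clearly apart, at 23.1 and 27.7 CPM against up to 26.5 in the other LG/J and 26.3 in SM/J libraries. The relation of these genes to Timp1 was not tested. What sets these 2 libraries apart was not tested.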

How the data were processed

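Chondrocyte RNA of 32 libraries was analysed from the deposited tables, 1 per library. Per the submitters' processing notes, STAR 2.0.4b placed reads on GRCm38 and featureCounts 1.45 of Subread counted them by gene. Libraries were SMARTer preparations of total RNA, per the labels' protocols. Annotation release and strand setting: not given in the sources used here. Per gene, the authors deposited whole-number read counts, and CPM and RPKM beside them. The deposited CPM and RPKM were those counts divided by library total, and by length, within 1.2e-10.

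Symbols were matched for 40254 of 41388 identifiers. Counts of all 32 libraries were filtered with filterByExpr (16136 genes kept, and 16229 without LG/J female 1 and male 1), scaled with TMM and fitted with the quasi-likelihood test of edgeR 4.0.16 in R 4.3.3, with robust dispersions and 1 mean per group. Adjusted p-values follow Benjamini and Hochberg across every gene kept, and a gene was called under 0.05. SE is the size of the log2 fold change over the square root of F. Relations used log2 CPM with a prior count of 2. The fit was tested on simulated data.

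The members and gene lists were chosen with earlier results of these data known. The genes named were the members, the 3 most like each among genes with mean log2 CPM of at least 3, up to 6 called genes of each list, genes overlapping TIMP loci, and Mmp2, Mmp3, Mmp13, Mmp14, Adamts4, Adamts5, Adam17, Lrp1, Il6, Col2a1 and Acan. Adam9, Adam10, Cd14, Fetub, Sp7, Alpl, Fabp4, Il6st, Fosl1, Fos, Junb, Adgra2, Wnt7a, Wnt7b, Cdh5, Tek and Ddx3y were named after their values were seen. Alternatives were other scalings and filters, DESeq2 1.42.0, voom of limma 3.58.1, the library number as a block, and leaving out or summing libraries. Leaving out 8 libraries together, and summing close pairs without LG/J female 1 and male 1, were chosen after seeing the data.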

Additional observations from a re-analysis of the deposited data

Results flagged for a closer look

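Within groups of 8 libraries, 5 of the 24 tests of the most extreme library found it far from the rest. The nominal rate of about 1 in 20 holds for independent, normally distributed values. CPM was not logged here and the same libraries enter the tests of every gene, so the count is not compared with that rate. LG/J male 1, flagged for both Timp1 and Timp3, had already been described as standing apart. Timp1 was high in LG/J male 1, at 3345 CPM against 445 to 1586 in the other LG/J males. Timp3 was low in the same library, at 796.5 CPM against 12403 to 20188. Timp2 was high in SM/J female 1, at 330.5 CPM against 167.5 to 240 in the other SM/J females, and leaving it out kept the Timp2 call. Reck was high in SM/J male 1, at 130.4 CPM against 69.4 to 91.3 in the other SM/J males. A2m was high in LG/J male 6, at 18.43 CPM against 1.51 to 4.64 in the other LG/J males, and this library also had the highest summed macrophage markers, at 1753 CPM. Among LG/J females, A2m was as high in numbers 2, 7 and 8, whose macrophage sums were 32.9, 74.3 and 60.8 CPM.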

How the results depend on the processing

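Timp2 kept its lower level in LG/J under all 46 alternatives run (log2 fold change -0.49 to -0.34, adjusted p up to 0.00269). Reck kept its call under 44 of 46 (-0.96 to -0.52), and lost it with library size only (-0.61, adjusted p = 0.0571) and with no filter on low counts (-0.66, adjusted p = 0.0624). Timp1 passed the threshold with voom alone (-0.62, adjusted p = 0.0451), and its sign turned when the 6 libraries holding transcripts of both sexes were left out (0.28) and with close pairs summed (0.11). Under the same alternatives Timp4 gave -0.03 and -0.00. A2m gave 0.05 without LG/J female 1, LG/J male 1 and those 6 libraries. In females, Timp1 gave 0.06, and -0.26 without LG/J female 1 and male 1. For sex, Timp1 gave -0.07, but 0.01 with the replicate block and 0.05 without the 6 libraries. The causes were not tested.

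Leaving out 1 library at a time gave 4493 to 5151 strain calls, adjusted p of 0.0139 to 0.0451 for Reck, and no other change of call among the members. Deviations of same-numbered libraries from different groups correlated over 0.1 in 30 of 48 pairs (median 0.14, range -0.45 to 0.84), against 99 of 336 differently numbered pairs (median -0.01). The same-numbered pairs include LG/J female 1 with LG/J male 1. The best match was the own number in 16 of 96 searches, each among the 8 libraries of another group, where some such matches arise by chance. Same-numbered pairs thus exceeded 0.1 more often, and what they share was not tested. The labels give the numbers no meaning, so the main fit did not take them as pairs. With the replicate block, strain calls numbered 5286 and sex calls 1052, against 558 without it. Timp4 had no value under the filter of 1 CPM in 8 libraries. Timp4 and A2m are limited by low counts.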

Other observations

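The uneven A2m levels of LG/J stood beside a low level of Mmp3. LG/J female 2, 7 and 8 and LG/J male 6, with A2m at 16.2 to 18.4 CPM, had Mmp3 at 22.6, 17.05, 16.2 and 18.8 CPM. The other LG/J libraries had Mmp3 at 53.3 CPM or more. SM/J libraries were mixed: male 1, with the highest A2m at 18.3 CPM, had 1717 CPM of Mmp3, whereas female 2, with the lowest Mmp3 at 94.8 CPM, had 12.95 CPM of A2m, and male 5, with the lowest A2m at 2.05 CPM, had 1876 CPM of Mmp3. LG/J female 7 and 8 are a close pair, and this was noticed in the data and not tested.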
